A study of Homo sapiens with 4 samples.

Results

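The genes described here are the nuclear genes for subunits of the respiratory chain complexes I to IV and of ATP synthase. They were chosen by gene symbol, as the *NDUFA*, *NDUFB*, *NDUFC*, *NDUFS* and *NDUFV* series, *SDHA* to *SDHD*, the *UQCR* series with *CYC1*, *COX4I1*, *COX5A*, *COX5B*, *COX8A*, the *COX6* and *COX7* series, and the *ATP5F1*, *ATP5M* and *ATP5P* series. Of 83 such protein-coding genes in the gene table, 81 had at least 1 probe, out of 17721 genes named through a probe. Complex I gave 36 genes, complex II 4, complex III 9, complex IV 15 and ATP synthase 17, measured by 111 probes in all. *UQCRHL* and *ATP5MGL* had no named probe.

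Respiratory complexes in the inner mitochondrial membrane pass electrons from NADH and succinate to oxygen and pump protons, and ATP synthase uses the proton gradient to make ATP. Most of their subunits are encoded in the nucleus, translated in the cytosol and imported, whereas a small set of core subunits is encoded in mitochondrial DNA. Dividing lymphoid cells use oxidative phosphorylation beside glycolysis, and transcription factors such as NRF1, GABP, YY1 and the estrogen-related receptors are known to act at many of the nuclear genes.

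RNA came from Nalm-6 cells, a human pre-B leukemia line, grown without hemin or another stress, and each of 4 genotypes was measured on 1 single-color Agilent array. Wild-type cells were set beside an Arp5 KO line, with both alleles disrupted by homologous recombination and reported to grow slowly. The other KO line was Arp8 KO, with its locus disrupted likewise. Conditional KO of Arp8 was reported to be lethal to cells, whereas Arp5 KO was not. The last sample, labelled Arp8 overexpression, is described as Arp8 KO cells given Arp8 through a Tet-Off (tetracycline-regulated) system. Arp5 and Arp8 are actin-related subunits of the INO80 chromatin remodeling complex, and the arrays address how gene expression differs in cells that lack either. With 1 array for each genotype there was no replicate error, so every difference below is between 2 arrays and carries no test.

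The targeted genes were examined first. The *ACTR5* probe, for the gene that encodes Arp5, gave 1909 units on the wild-type array, 65.3 on the Arp5 KO array, 1849 on the Arp8 KO array and finally 2088 on the array labelled Arp8 overexpression, a log2 ratio of -4.85 for Arp5 KO over wild-type. The 2 probes of *ACTR8*, the Arp8 gene, gave 1092, 993, 785 and 679 units and 2149, 2233, 1654 and 1857 units in the order wild-type, Arp5 KO, Arp8 KO and labelled Arp8 overexpression. *ACTR8* was thus lower on the Arp8 KO array than on the wild-type array with both probes, at log2 ratios of -0.49 and -0.40, but well above background there, and where these probes lie relative to the disrupted part is not given in the sources used here. *ACTR8* signal on the array labelled Arp8 overexpression was not above wild-type either, with log2 ratios of -0.71 and -0.23. Nor is it given whether these probes read the introduced transcript, and this array is named by its label throughout, also wherever a direction is drawn from it.

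Markers of the labelled cell type were present. All 10 pre-B markers were well above background on the 4 arrays, among them *VPREB1* and *IGLL1* of the surrogate light chain, *CD79A*, *DNTT* and *RAG1*. Among the markers of other cells, *CD3D*, *MPO*, *HBB* and *COL1A2* were not well above background on any array, and *COL1A1* had no named probe. Above background were *CD3E* and *CD4* for T cells and *CD14* and *LYZ* for myeloid cells. Summed over the markers of a cell type, T cell signal was 5324, 5980, 4581 and 6640 units in the array order given above, nearly all of it from *CD4*, and myeloid signal was 183, 177, 271 and 257 units. The myeloid sum was higher on the Arp8 KO array and the array labelled Arp8 overexpression, through *LYZ* (55.4, 46.3, 143 and 140 units), and its part in any result below was not tested.

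Of the 81 genes with a probe, 80 were measured, meaning that at least 1 probe was well above background on at least 1 array, out of 13845 genes measured in all. On all 4 arrays 79 were above background, 78 gave 500 units or more on every array and 64 gave 10000 units or more. The gene left out was *COX7B2*, a testis isoform of complex IV. Signals are the scanner software's processed intensities in arbitrary units, and levels are their log2 values minus the 75th percentile of the array, which was 1980, 1950, 2004 and 2012 units in the array order above. No spot was saturated. For probes of 500 units or more that were spotted repeatedly (145 to 150 probes), the standard deviation of the log2 ratio between 2 arrays had a median of 0.030 to 0.035 in the 4 comparisons and a 95th percentile of 0.052 to 0.065. This is the error of spots on the same array and holds nothing of the spread between cultures or RNA preparations. In bulk RNA, a lower level in every cell and fewer cells with the transcript cannot be told apart.

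Most levels differed little across genotypes. Among the 78 genes of 500 units or more, the median span between the lowest and the highest array was 0.25 on the log2 scale (1.19-fold), against 0.31 (1.24-fold) over all 8043 genes of that brightness and 0.24 (1.18-fold) over the 1669 genes of 10000 units or more. The spans of single members ran from 0.014 for *ATP5MC2*, a c-ring subunit of ATP synthase, to 0.74 for *NDUFV3*, a subunit of the NADH-binding part of complex I. Complex I also had the widest median span of the complexes, 0.28, and complex IV the narrowest, 0.18.

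The median log2 ratio of the measured members was 0.062 for Arp5 KO over wild-type, 0.055 for Arp8 KO over wild-type, 0.10 for labelled Arp8 overexpression over wild-type and -0.089 for Arp8 KO over labelled Arp8 overexpression. Over all genes the same medians were 0.024, 0.025, 0.032 and -0.0025, and over genes of 10000 units or more they were 0.055, 0.040, 0.087 and -0.038. The first 3 medians of the members thus lay close to those of bright genes, and the last lay lower. That brightness limit was chosen after the values were seen. The comparisons share arrays, the wild-type array 3 of them and the Arp8 KO array 2, and are given side by side for that reason.

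In Arp5 KO cells 7 of 80 members were more than 1.2-fold higher than in wild-type cells (background 18.6% of all genes) and 4 were more than 1.2-fold lower (background 15.7%). None was beyond 1.5-fold in either direction (background 4.5% higher and 4.11% lower) or beyond 2-fold (background 2.56%). The split of the calls turned with the scaling, to 3 higher and 6 lower after quantile normalization, 3 and 5 in the authors' table and 5 and 5 without scaling.

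In Arp8 KO cells 6 of 79 members were more than 1.2-fold higher than wild-type (background 20.4%) and 11 more than 1.2-fold lower (background 18.1%). Quantile normalization gave 3 higher and 13 lower. Beyond 1.5-fold, none was higher (background 5.75%) and 2 were lower, *NDUFV3* among them (background 5.87%), while none passed 2-fold (background 3.6%).

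On the array labelled Arp8 overexpression 10 of 79 members were more than 1.2-fold higher than wild-type (background 20.4%) and 2 more than 1.2-fold lower (background 17.7%). Without scaling these counts were 14 and 1. No member was beyond 1.5-fold (background 5.85% higher and 5.63% lower) or 2-fold (background 3.75%). Of the 79, 69 had a log2 ratio above 0, beside 1152 of 1669 genes of 10000 units or more.

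The Arp8 KO line set against the array labelled Arp8 overexpression, made from the KO line, gave 0 of 79 members more than 1.2-fold higher (background 15.5%) and 15 more than 1.2-fold lower (background 15.9%). Among genes of 10000 units or more, 3.95% were higher and 12% lower by the same rule. Beyond 1.5-fold, none was higher (background 3.34%) and 3 were lower, *NDUFV3* and *NDUFA6* among them (background 4.03%), and none passed 2-fold (background 1.76%).

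**Figure D1:**
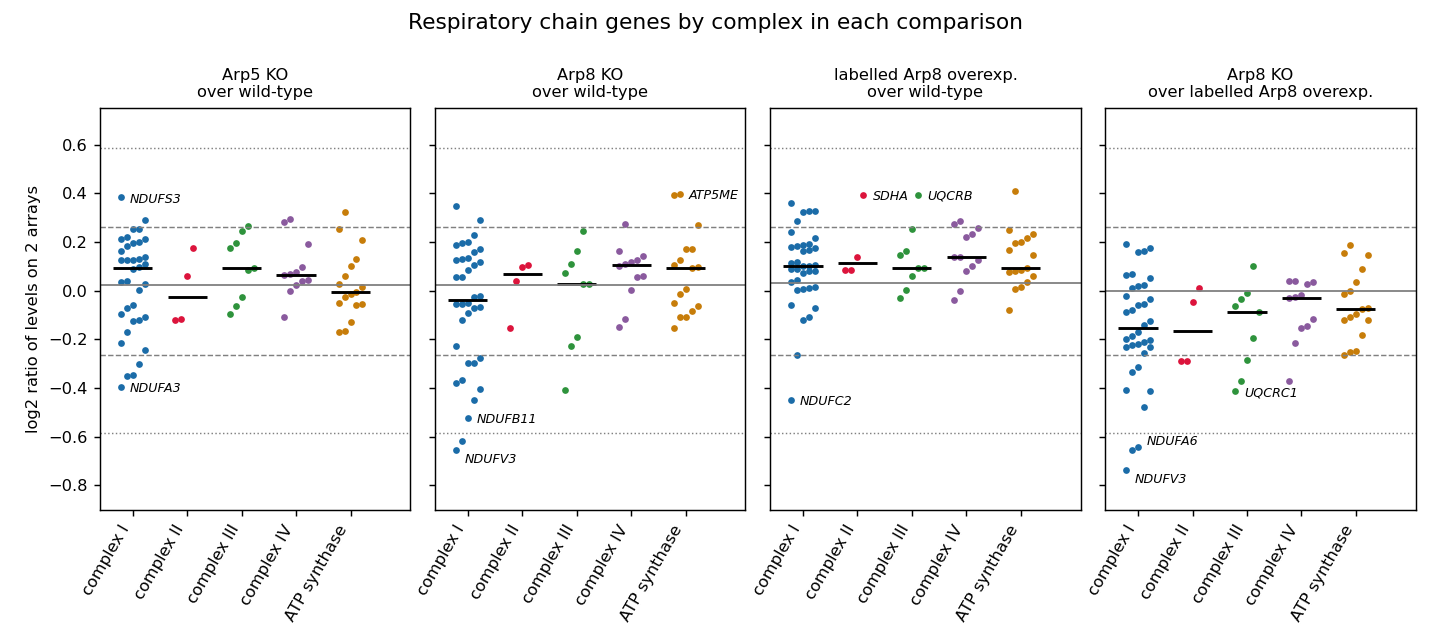
Log2 ratio of each of 78 respiratory chain genes (points, 1 per gene, spread sideways only for legibility) by complex in the 4 comparisons. Black bars are medians of a complex, the solid grey line is the median of all genes, and dashed and dotted lines mark 1.2-fold and 1.5-fold. All points beyond 1.5-fold are complex I genes on the low side of the panels with Arp8 KO in the numerator.

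Complex I takes electrons from NADH, and its 7 nuclear core subunits include those that bind the flavin and the iron-sulfur clusters. *NDUFV3*, an accessory subunit beside the flavin-binding core, was read by 3 probes. They gave 8044, 6688, 5167 and 8647 units, then 8783, 7080.1, 5571 and 8956 units and then 1423, 1035, 878 and 1574 units, each in the order wild-type, Arp5 KO, Arp8 KO and labelled Arp8 overexpression. All 3 were lowest on the Arp8 KO array, next lowest on the Arp5 KO array and close to each other on the other arrays. Their log2 ratios for Arp8 KO over wild-type were -0.66, -0.67 and -0.71, and for Arp5 KO over wild-type -0.24, -0.29 and -0.44.

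*NDUFA6*, an accessory subunit of the LYR family, was read by 2 probes, at 28453, 29818, 21608 and 33299 units and at 12456, 12177, 8995 and 14329.9 units in the same order. Both were lowest on the Arp8 KO array and highest on the array labelled Arp8 overexpression, with log2 ratios between those arrays of -0.62 and -0.67. *NDUFB5*, an accessory subunit of the membrane arm that was singled out after its values were seen, gave 2139 units (wild-type), 2146 (Arp5 KO), 1762 (Arp8 KO) and 2463 (labelled Arp8 overexpression). Its log2 ratios for Arp8 KO were -0.30 to wild-type and -0.48 to labelled Arp8 overexpression.

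**Figure D2:**
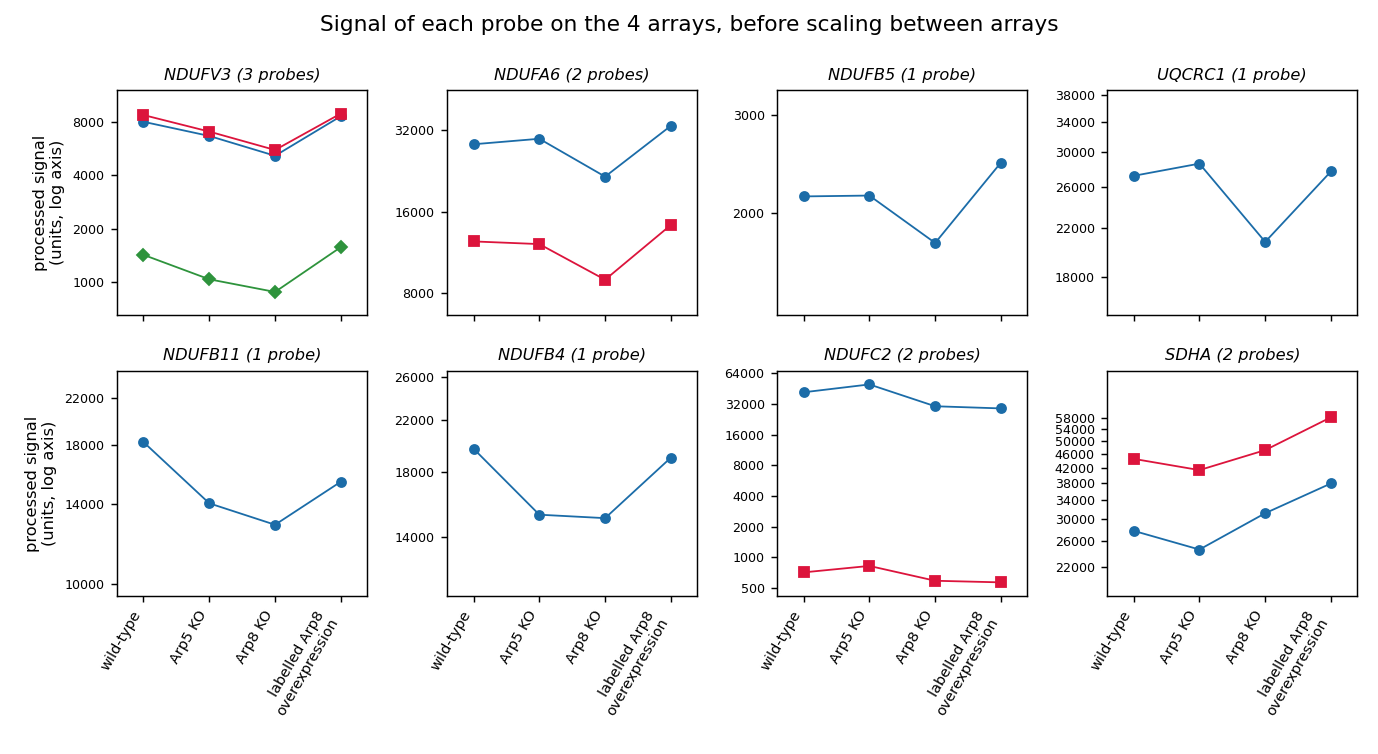
Processed signal (units, log axis, before scaling between arrays) of every probe above background for 8 members, on the 4 arrays. Each line joins the values of 1 probe, and the heights of different probes are not comparable. *NDUFV3*, *NDUFA6*, *NDUFB5* and *UQCRC1* are lowest on the Arp8 KO array, *NDUFB11* is highest in wild-type, *NDUFB4* is lower on both KO arrays, *NDUFC2* is lower on the Arp8 KO array and the array labelled Arp8 overexpression than in wild-type, and *SDHA* is highest on the array labelled Arp8 overexpression.

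These members and *UQCRC1* of complex III were among the 5 of 78 (6.41%) that were more than 1.2-fold lower on the Arp8 KO array than on each other array. The same held for 3.46% of the 8043 genes of 500 units or more and for 2.28% of the 1669 genes of 10000 units or more. All 5 names were the same under 10 of the 11 other settings, and the normexp setting gave 4, without *NDUFB5*. No member was higher on the Arp8 KO array than on each other array by that fold. *NDUFA3* was lower on the Arp5 KO array than on each other array, *NDUFB11* was higher on the wild-type array and *SDHA* was higher on the array labelled Arp8 overexpression.

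The RefSeq promoter table (build GRCh38.p14) held 250 bases before to 50 after the start site for 67 of the 83 genes, 3 of these 5 among them. They are printed 5′ to 3′, with capitals for 3 motifs searched on both strands, GCGCANGCG (NRF1 core), CCGGAAG (core of ETS factors such as GABPA) and AAGATGGCG (YY1 core). *NDUFV3* (chr21:42893059-42893358, plus strand) holds none of them in this window, *NDUFA6* (chr22:42090723-42091022, minus strand) holds 1 YY1 core, and *UQCRC1* (chr3:48609597-48609896, minus strand) holds 2 NRF1 cores and 1 YY1 core. They are shown because these members stood lowest on the Arp8 KO array.
NDUFV3: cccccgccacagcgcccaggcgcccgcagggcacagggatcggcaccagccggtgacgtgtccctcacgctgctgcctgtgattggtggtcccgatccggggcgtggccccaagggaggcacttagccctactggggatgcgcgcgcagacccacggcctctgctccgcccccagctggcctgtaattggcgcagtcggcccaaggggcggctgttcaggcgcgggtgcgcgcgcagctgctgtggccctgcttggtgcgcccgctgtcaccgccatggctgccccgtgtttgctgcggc
NDUFA6: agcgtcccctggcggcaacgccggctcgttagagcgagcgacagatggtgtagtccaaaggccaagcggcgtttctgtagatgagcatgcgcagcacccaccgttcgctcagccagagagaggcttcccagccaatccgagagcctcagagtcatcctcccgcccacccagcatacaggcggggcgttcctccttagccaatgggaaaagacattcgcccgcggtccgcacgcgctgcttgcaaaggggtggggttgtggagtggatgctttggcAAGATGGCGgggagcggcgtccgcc
UQCRC1: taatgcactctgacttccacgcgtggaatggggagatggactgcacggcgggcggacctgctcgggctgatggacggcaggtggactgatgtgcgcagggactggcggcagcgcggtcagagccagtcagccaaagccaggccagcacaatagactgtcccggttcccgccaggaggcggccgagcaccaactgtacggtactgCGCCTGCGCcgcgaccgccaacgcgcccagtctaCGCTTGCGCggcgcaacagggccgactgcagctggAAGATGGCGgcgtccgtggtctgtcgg

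The remaining complex I genes named here differed in other ways. *NDUFB11*, a small membrane-arm subunit, gave 18231 units on the wild-type array, 14067 on the Arp5 KO array, 12845 on the Arp8 KO array and finally 15414 on the array labelled Arp8 overexpression. It was highest in wild-type cells, with log2 ratios to wild-type of -0.35, -0.52 and -0.27 for Arp5 KO, Arp8 KO and labelled Arp8 overexpression. *NDUFA3*, an accessory subunit near the junction with the membrane arm, gave 18969 units (wild-type), 14208 (Arp5 KO), 18261 (Arp8 KO) and 19485 (labelled Arp8 overexpression). Only its Arp5 KO value stood low, at -0.39 to wild-type. *NDUFB4*, another membrane-arm subunit, gave 19676 units (wild-type), 15236 (Arp5 KO), 15034 (Arp8 KO) and 19005 (labelled Arp8 overexpression), which put both KO arrays below the others, at -0.35 for Arp5 KO and -0.41 for Arp8 KO over wild-type.

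*NDUFC2*, an accessory subunit of the membrane arm, had 2 probes, at 41609.7, 49702, 30353 and 28909 units and 712, 824, 590 and 568 units in the array order above. Both were highest in Arp5 KO cells and lower on the Arp8 KO array and the array labelled Arp8 overexpression than in wild-type cells. The log2 ratios of the gene to wild-type were 0.26, -0.38 and -0.45. *NDUFS3*, a core subunit of the peripheral arm, went the other way, at 34008 units (wild-type), 43704 (Arp5 KO), 38474 (Arp8 KO) and 43420.4 (labelled Arp8 overexpression). Its wild-type value was the lowest, and its log2 ratio for Arp5 KO, 0.38, was the highest of the members bright on all arrays. *NDUFA2*, an accessory subunit of the peripheral arm, was also lowest in wild-type cells, with 20137, 22945, 25949.7 and 24937 units and log2 ratios of 0.21, 0.35 and 0.29.

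The core subunits *NDUFS1*, *NDUFV1* and *NDUFV2*, which hold iron-sulfur clusters or the flavin, had no log2 ratio beyond 1.2-fold in the 4 comparisons. *NDUFS1*, with the largest number of clusters, gave 16446, 17659, 16081 and 16784 units and had the smallest span of the core subunits, 0.17. *NDUFB10*, a membrane-arm subunit, and *NDUFS8* had log2 ratios of 0.19 and 0.18 for Arp8 KO over labelled Arp8 overexpression, among the 3 highest in that comparison.

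Taken as a group, complex I had median log2 ratios of 0.093, -0.039, 0.10 and -0.16 in the 4 comparisons in the order used above, and each kept its sign under all settings. Of its 36 genes, 2 higher and 10 lower passed 1.2-fold in Arp8 KO over wild-type (background 20.4% and 18.1% of all genes), and 2 higher and 4 lower did in Arp5 KO over wild-type (18.6% and 15.7%). For labelled Arp8 overexpression over wild-type the counts were 5 higher and 2 lower (20.4% and 17.7%), and for Arp8 KO over labelled Arp8 overexpression 0 higher and 8 lower (15.5% and 15.9%).

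Complex II, succinate dehydrogenase, is the complex built from nuclear genes only. *SDHA*, its flavoprotein, had 2 probes, which gave 27837, 24641, 31217 and 37897 units and 44469, 41328, 47068 and 58294 units in the array order above. Both were highest on the array labelled Arp8 overexpression, next on the Arp8 KO array and lowest in Arp5 KO cells. For the gene, the log2 ratio of labelled Arp8 overexpression to wild-type was 0.39, that of Arp8 KO was 0.11 and that of Arp5 KO was -0.12. The promoter of *SDHA* (chr5:218070-218369, plus strand) is shown because this was the single member more than 1.2-fold higher on the array labelled Arp8 overexpression than on each other array, and its window holds 4 NRF1 cores.
SDHA: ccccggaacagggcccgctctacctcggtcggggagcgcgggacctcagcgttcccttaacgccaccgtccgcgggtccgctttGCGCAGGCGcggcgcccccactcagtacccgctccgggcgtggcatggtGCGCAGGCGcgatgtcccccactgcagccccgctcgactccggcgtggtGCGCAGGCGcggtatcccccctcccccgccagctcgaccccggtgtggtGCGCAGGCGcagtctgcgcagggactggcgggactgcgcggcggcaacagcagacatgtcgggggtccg

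*SDHB*, the iron-sulfur subunit, gave 17705, 18194, 18415 and 19103 units and had the smallest span of complex II, 0.087. Of the membrane anchors, *SDHC* was lowest in Arp8 KO cells, at 4133, 4601, 3765 and 4622 units. *SDHD* gave 7450.3, 6773, 8061 and 8031 units over 4 probes, and its log2 ratio for Arp5 KO over wild-type turned with the probe and the setting, from -0.15 to 0.10. The median of the complex was 0.068 for Arp8 KO over wild-type, 0.11 for labelled Arp8 overexpression over wild-type and -0.17 for Arp8 KO over labelled Arp8 overexpression. For Arp5 KO over wild-type it ran from -0.065 to 0.083 over the settings, so no direction is given.

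Complex III passes electrons from ubiquinol to cytochrome c. *UQCRC1*, a core subunit on the matrix side, gave 27221 units (wild-type), 28622 (Arp5 KO), 20760.4 (Arp8 KO) and 27726 (labelled Arp8 overexpression). Only the Arp8 KO array stood low, with log2 ratios of -0.41 to wild-type and -0.41 to labelled Arp8 overexpression. *UQCRC2*, its partner in the core, did not share this, at 22164, 25861, 24236 and 24925 units, where wild-type was lowest. *UQCRB*, a small subunit near the ubiquinone site, was highest on the array labelled Arp8 overexpression, with 14647, 17348, 15092 and 19574 units and a log2 ratio to wild-type of 0.40.

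The electron-carrying subunits of complex III stayed within 1.2-fold between arrays. The Rieske protein gene *UQCRFS1* gave 38819, 37508, 41345 and 44152 units, and *CYC1*, which encodes cytochrome c1, gave 23185, 21359.7, 20050.1 and 23056 units, lowest in Arp8 KO cells at a log2 ratio to wild-type of -0.23. *UQCR11* was among the 3 genes whose probes differed most, by 0.37 for Arp8 KO over labelled Arp8 overexpression, so its value rests on which probe is read. Complex III medians in the 4 comparisons were 0.095, 0.028, 0.094 and -0.089.

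Complex IV reduces oxygen, and its catalytic core is mitochondrially encoded, so that the nuclear genes here encode the surrounding subunits. *COX4I1*, the regulatory subunit that binds ATP, had 2 probes, at 59815, 73581, 73360.1 and 72851 units and 70154, 83048, 85865 and 82344 units in the array order above. Wild-type cells were lowest with both, and the 3 other arrays lay near each other, with log2 ratios to wild-type of 0.29, 0.28 and 0.23. *COX5A* gave 19167, 19735, 21170.4 and 20875 units, with probes that differed in which array was lowest, and *COX5B* was nearly level at 58619.6, 58696, 59414 and 58007 units, a span of 0.062.

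Subunit isoforms named for other tissues were split. The heart and muscle isoform gene *COX6A2* was bright, at 43373, 51918, 45766 and 53270.1 units, with Arp5 KO and labelled Arp8 overexpression above the rest. *COX6B2*, a testis isoform, was dim but above background on every array, at 68.5, 69.5, 72.5 and 65.2 units. *COX7A1*, a muscle isoform, was above background in Arp5 KO cells only, at 11 units or less on every array, so that its log2 ratio of 0.51 is that of a gene near the floor of the measurement and it is 1 of the 7 members counted as higher there. *COX7B*, a small ubiquitous subunit, had the widest span of the bright complex IV genes, 0.37, with 8479, 8338, 7738 and 10043 units, lowest in Arp8 KO cells.

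Complex IV medians over wild-type were 0.066 for Arp5 KO, 0.10 for Arp8 KO and 0.14 for labelled Arp8 overexpression, and no complex IV gene was lower than wild-type beyond 1.2-fold in any of them. For Arp8 KO over labelled Arp8 overexpression the median ran from -0.033 to 0.0041 over the settings, so no direction is given. Wild-type was the lowest array for 9 of the 12 bright complex IV genes.

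ATP synthase has a catalytic head in the matrix, a stalk and a membrane ring. The head genes *ATP5F1A*, *ATP5F1B* and *ATP5F1C* encode the alpha, beta and gamma subunits. *ATP5F1A* gave 106260, 114501, 99755 and 119385 units, lowest in Arp8 KO cells and highest on the array labelled Arp8 overexpression, at a log2 ratio between them of -0.25. *ATP5F1B* gave 58029, 54809, 56689.7 and 61426 units and *ATP5F1C* 12059, 11449, 11512 and 12555 units, each with a span of 0.12. *ATP5F1D*, the delta subunit of the central stalk, gave 10184, 9859, 11085 and 9780 units and was highest in Arp8 KO cells.

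The genes with the highest ratios lay in the membrane part. *ATP5ME*, the e subunit that helps pair the enzyme into dimers, had 2 probes, at 18389.9, 19159.5, 22718 and 22420.1 units and 21577, 26798, 31073 and 32273 units in the array order above. Wild-type was lowest with both, and the Arp8 KO array and the array labelled Arp8 overexpression were high, at log2 ratios of 0.40 and 0.41 for the gene. *ATP5MK*, a small membrane subunit also linked to dimers, gave 50214, 61956, 66812 and 60599.9 units, lowest in wild-type cells, with ratios of 0.33, 0.39 and 0.25. *ATP5MC3*, a c-ring gene, and *ATP5MG*, of the membrane part, had probes that differed by up to 0.40 and 0.32 in a log2 ratio.

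For ATP synthase the medians over wild-type were 0.094 for Arp8 KO and 0.095 for labelled Arp8 overexpression. For Arp8 KO over labelled Arp8 overexpression the median was -0.074. For Arp5 KO over wild-type the median was -0.0055 and its sign changed with the setting, from -0.044 to 0.020. No ATP synthase gene was more than 1.2-fold lower than wild-type in the 3 comparisons with it.

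Over the 26 members with more than 1 probe above background, the probes of a gene differed in log2 ratio by a median of 0.068, 0.061, 0.083 and 0.048 in the 4 comparisons, and by less than 0.1 for 16, 17, 15 and 20 genes. These gaps are larger than the repeat error of a single probe. Of the 83 genes, 48 have at least 1 pseudogene of their name in the gene table (200 in all), and cross-hybridization to their transcripts was not tested.

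The order of the arrays was taken for the 78 genes of 500 units or more. The wild-type array was lowest for 36 of them (background 33.5% of the 8043 genes of that brightness), Arp8 KO for 25 (background 24.6%), Arp5 KO for 13 (background 23.1%) and labelled Arp8 overexpression for 4 (background 18.8%). Among the 1669 genes of 10000 units or more the same shares were 42.2%, 26.3%, 17.5% and 14%, beside 46.2%, 32.1%, 16.7% and 5.13% of the members. The array labelled Arp8 overexpression was highest for 42 members (background 30%), Arp5 KO for 18 (background 20.7%), Arp8 KO for 14 (background 25.4%) and wild-type for 4 (background 23.8%). At the high end the members' shares were 53.8%, 23.1%, 17.9% and 5.13%, and those of genes of 10000 units or more were 37.6%, 23.7%, 22.6% and 16%.

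The order rests on small differences and moved with the setting. Wild-type was the lowest array for 27 to 38 of the members over all settings, with 27 after quantile normalization, and the array labelled Arp8 overexpression was highest for 31 to 46. The Arp8 KO array was lowest for 22 to 26. This recount of the order was added after the values were seen.

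**Figure D3:**
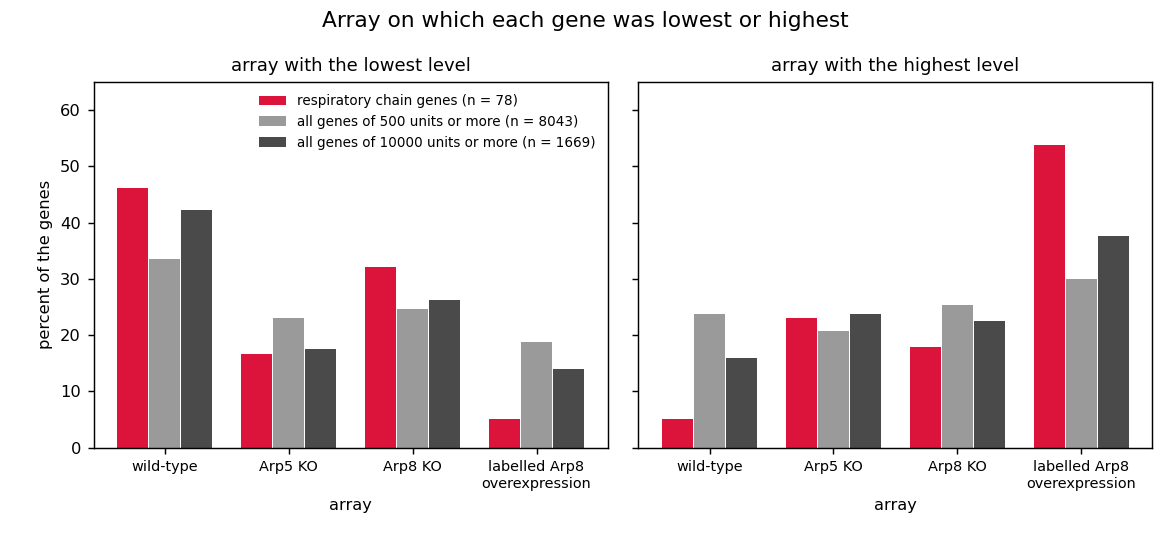
Percent of genes (vertical axis) that had their lowest level (left) or highest level (right) on each of the 4 arrays, for 78 respiratory chain genes (red), all 8043 genes of 500 units or more (light grey) and all 1669 genes of 10000 units or more (dark grey). The array labelled Arp8 overexpression was highest for 53.8% of the members and lowest for 5.13%.

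Across the promoters of the members, described without a test, 21 of 67 (31.3%) held an NRF1 core, against 8.05% of all 27305 promoters of the same length and 11% of 15843 promoters of protein-coding genes. The ETS core was in 20 (29.9%, against 10.7% and 14.2%) and the YY1 core in 8 (11.9%, against 1.85% and 2.74%). At least 1 of these was in 39 (58.2%, against 18.3% and 24.7%). By complex, the NRF1 core was in 8 of 31 complex I promoters, 2 of 3 for complex II, 4 of 7 for complex III, 1 of 13 for complex IV and 6 of 13 for ATP synthase.

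Lists of genes that work with the respiratory chain were read in the same way, without recomputing their medians under other settings, so no direction is drawn from these. Assembly factors build the complexes but do not stay in them. Their 47 measured genes had medians of 0.048, 0.095, 0.082 and -0.0053 in the 4 comparisons. Beyond 1.2-fold over wild-type, 7 higher and 4 lower were counted in Arp5 KO cells (background 18.6% and 15.7% of all genes), 12 higher and 6 lower in Arp8 KO cells (20.4% and 18.1%) and 8 higher and 3 lower on the array labelled Arp8 overexpression (20.4% and 17.7%). Between the Arp8 KO array and that array there were 5 higher and 7 lower (15.5% and 15.9%). Among assembly factors of 500 units or more the span over the arrays reached 0.97, beside 0.74 among the members. *NDUFAF6*, a complex I factor, gave 955, 1495, 1891 and 1100 units, high in both KO lines, with a log2 ratio of 0.97 for Arp8 KO over wild-type. *SURF1*, a complex IV factor, was also highest in Arp8 KO cells, at 6682, 8185, 11482 and 9027 units.

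The complex II factors *SDHAF4* and *SDHAF2* were lower in both KO lines. *SDHAF4* gave 650, 310, 295 and 469 units, with log2 ratios to wild-type of -1.04 for Arp5 KO and -1.16 for Arp8 KO, both beyond 2-fold. *SDHAF2* gave 8331, 6548, 5671 and 11128 units and was highest on the array labelled Arp8 overexpression, at -0.97 for Arp8 KO over it.

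Regulators of respiratory gene transcription (18 measured of 19) had medians of -1.2e-05, 0.068, -0.035 and 0.17. *ESRRA*, the estrogen-related receptor alpha gene, gave 7722, 9881, 12347 and 10225 units and was lowest in wild-type and highest in Arp8 KO cells, at a log2 ratio of 0.66. *GABPB1*, a GABP subunit, was lowest in Arp8 KO cells, with 2727, 2422, 1941 and 2188 units and a ratio of -0.51.

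Subunits and partners outside the symbol rule were few, 5 measured. *DMAC2L*, an ATP synthase coupling factor, gave 883, 1758, 1072 and 1357 units, and *ATP5IF1*, the inhibitor of ATP synthase, 72451, 107382, 89443 and 95253 units. Both were lowest in wild-type and highest in Arp5 KO cells, at log2 ratios of 1.02 and 0.59. *CYCS*, for cytochrome c, was lowest in wild-type cells, with 875, 1136, 1100 and 1323 units.

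Mitochondrial ribosomal protein genes, which translate the mitochondrially encoded subunits, had 76 members with medians of 0.040, 0.055, 0.10 and -0.032. Beyond 1.2-fold, the comparisons to wild-type gave 6 higher and 4 lower in Arp5 KO cells (background 18.6% and 15.7% of all genes), 2 higher and 8 lower in Arp8 KO cells (20.4% and 18.1%) and 10 higher and 1 lower for labelled Arp8 overexpression (20.4% and 17.7%). Arp8 KO over labelled Arp8 overexpression gave 0 higher and 13 lower (15.5% and 15.9%). *MRPL50* gave 9791, 9473, 4776 and 5229 units, with the Arp8 KO array and the array labelled Arp8 overexpression low. Cytosolic ribosomal protein genes (87) had medians of 0.084, 0.055, -0.0077 and 0.051.

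Tricarboxylic acid cycle enzymes (13) had medians of -0.011, -0.018, 0.13 and -0.0014. Glycolysis enzymes (17) had medians of -0.15, -0.011, -0.085 and -0.011 in the same order. Beyond 1.2-fold there were 1 higher and 5 lower in Arp5 KO cells (background 18.6% and 15.7% of all genes), 2 higher and 5 lower in Arp8 KO cells (20.4% and 18.1%) and 1 higher and 5 lower on the array labelled Arp8 overexpression (20.4% and 17.7%), all over wild-type. For Arp8 KO over labelled Arp8 overexpression there were 1 higher and 1 lower (15.5% and 15.9%). *PKM*, for pyruvate kinase, gave 28500.4, 16336, 21312 and 23175 units, lowest in Arp5 KO cells at a log2 ratio of -0.78. *PFKL*, for a phosphofructokinase, was lowest in Arp8 KO cells, at 5179, 3727, 3201 and 4190.4 units and -0.71.

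**Figure D4:**
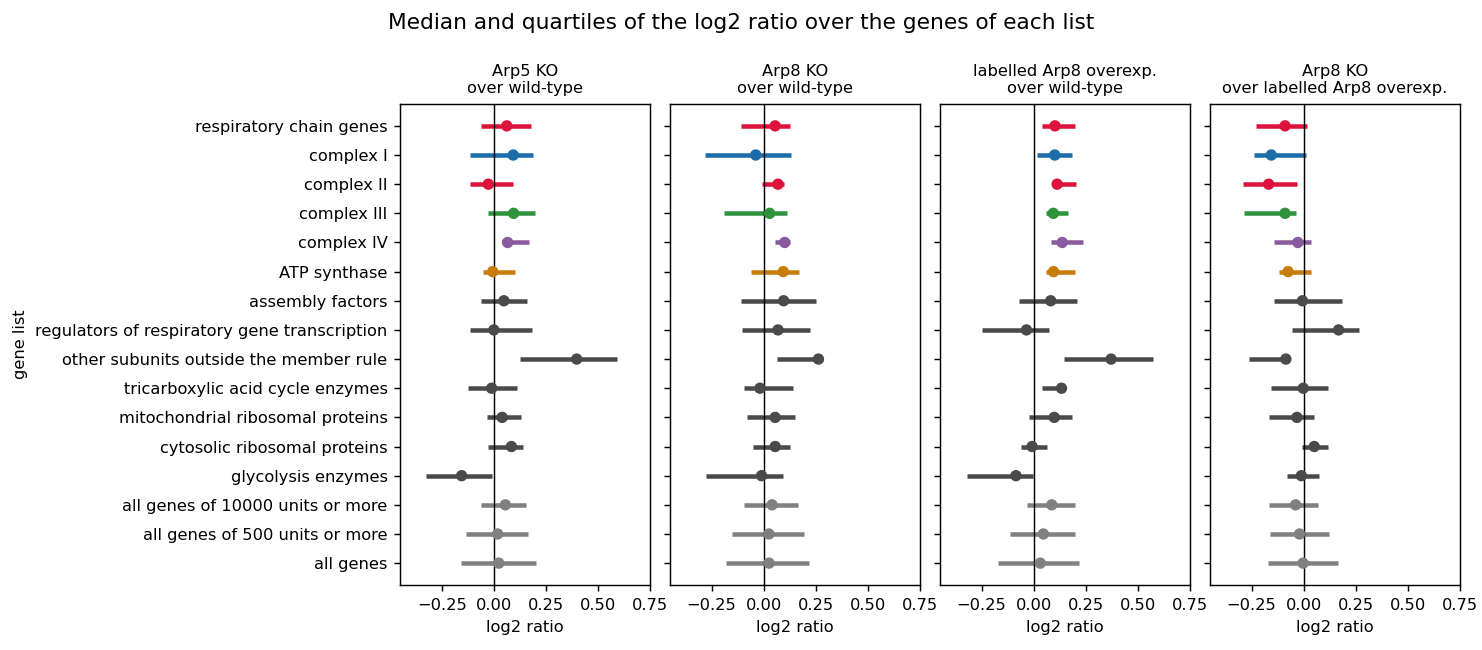
Median (point) and quartiles (bar) of the log2 ratio over the genes of each list (rows) in the 4 comparisons, with the respiratory chain complexes in color, other lists in dark grey and all genes in light grey. The sign of complex II and ATP synthase for Arp5 KO over wild-type changes with the setting, such as the choice of probe. That of complex IV for Arp8 KO over labelled Arp8 overexpression also changes with the setting.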

How the data were processed

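RNA of 4 genotypes was measured on 4 arrays of 1 slide, read in 1 scan with Agilent Feature Extraction 10.5.1.1. The authors deposited its processed signal, an intensity on a linear scale from which the software had removed background. A second deposited table of intensity proved to hold that signal times 1 factor per array (0.847, 0.838, 0.825 and 0.807 for wild-type, Arp5 KO, Arp8 KO and labelled Arp8 overexpression), and how the factors were set is not stated. Well above background were 31188, 31420, 30394 and 30803 of 43376 spots, and the number of arrays limits the precision.

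Outlier spots were left out and the log2 values of repeated spots were averaged. The 75th percentile of spots other than controls was subtracted. A probe counted when it was well above background on at least 1 array, and lower signals on other arrays were set to the weakest above-background signal there (7.76, 6.90, 9.44 and 8.87 units in the order above). A gene is the median of its probes. Genes were named through probe accessions and the RefSeq gene table of GRCh38.p14 (26222 of 41000 probes, 64%), used for names only because the array design names build hg18.

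Members and lists were chosen with earlier results of these data known. Named were catalytic and redox subunits, isoforms of other tissues, the 3 highest and 3 lowest members in each comparison, members beyond 1.5-fold, the 3 with the largest probe gaps and the targeted genes, and up to 4 genes of each other list. *NDUFB5*, *ATP5MC2* and *COX7B* were singled out after their values were seen. Alternatives were other scalings, another background correction, the table of the authors, stricter and looser filters, outlier spots kept, other probe summaries and a 2-fold rule. The normexp setting (offset 50) was run on the median spot signal, since no mean signal was among the columns. Only the 1.5-fold call for higher genes was tested on simulated data, with 2-fold changes. The 1.2-fold calls, the medians and the order of the arrays were not tested in this way. Software was R 4.3.3 (limma 3.58.1) and Python 3.11.15 (matplotlib 3.10.9, scipy 1.17.1, pandas 2.3.3, numpy 2.4.6).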

Additional observations from a re-analysis of the deposited data

How the results depend on the processing

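Medians and counts of the members, medians of the complexes, the order of the arrays and the ratios of 35 named genes were recomputed under 11 other settings. Of 44 medians 4 moved by more than the repeat error of a probe, of 136 counts 6 changed by more than 1.5 times, and of 1536 log2 ratios of the named genes 228 moved and 0 of those beyond 1.2-fold changed sign. After quantile normalization the median of the members was 0.014 for Arp5 KO and 0.056 for labelled Arp8 overexpression over wild-type, and 3 members were higher beyond 1.2-fold in Arp5 KO cells and 3 in Arp8 KO cells. In the authors' table these medians were 0.024 and 0.056, with 3 members higher in Arp5 KO cells. Without scaling, 1 member was lower beyond 1.2-fold on the array labelled Arp8 overexpression than in wild-type cells. With a 2-fold rule 0 members were called in Arp8 KO over wild-type and 0 in Arp8 KO over labelled Arp8 overexpression, where 2 and 3 passed 1.5-fold. Apart from the 2-fold rule, which only raises the threshold, the cause was not tested.

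With 1 array for each genotype, no paired analysis was possible. Differences between clones, cultures and RNA preparations cannot be told apart from those between genotypes. Ratios of dim genes such as *COX7A1* depend on the signal over background. The scaling fixes where 0 lies, and the median of all genes under each scaling stayed within 0.1 of 0.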
